A study of Mus musculus with 3 samples.

Results

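The MHC class II presentation genes were followed through thymus sections of p53-deficient and wild-type (WT) mice. The group holds 8 genes of the 54838 features in the deposited counts, and its members were taken by name for their part in class II presentation and not by their values. They are *Cd74*, *H2-Aa*, *H2-Ab1*, *H2-Eb1*, *H2-DMa*, *H2-DMb1*, *Ciita* and *Ctss*. All 8 had UMIs in every section, and none was lost to a filter on low values. The sum of *Cd74*, *H2-Aa*, *H2-Ab1* and *H2-Eb1*, which hold most of the UMIs, is called the class II sum.

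Spatial transcriptomics was carried out on 3 thymus sections of female C57BL/6 mice, 1 section per mouse. The section labelled KO1308 came from a *Trp53*-/- mouse of 21 weeks, KO1134 from a *Trp53*-/- mouse of 17 weeks, and WT1101 from a *Trp53*+/+ mouse of 17 weeks. The deletion is not limited to a cell type, so the thymocytes and the presenting cells of the knockout (KO) mice both carry it. The paper describes perfusion of mice for its single-cell assays, and its methods for these sections do not mention it. Age, chip and permeabilisation time (25 min for WT and 27 min for KO) differed along with genotype or section, and their part in the values was not tested.

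MHC class II molecules carry peptides from the endocytic pathway to CD4 T cells. In the thymus, class II on cortical epithelium takes part in positive selection of CD4 T cells, and class II on medullary epithelium, dendritic cells and B cells takes part in tolerance. *H2-Aa* and *H2-Ab1* encode the alpha and beta chains of I-A, and *H2-Eb1* the beta chain of I-E, whose alpha chain gene is defective in C57BL/6 mice. *Cd74* encodes the invariant chain, which guards the empty groove, *Ctss* encodes cathepsin S, which trims that chain, *H2-DMa* and *H2-DMb1* encode H2-DM chains, which exchange its remnant for peptide, and *Ciita* encodes the coactivator that switches the class II genes on. In GRCm38 *Ciita* is at chr16:10480059-10528418 and *Ctss* at chr3:95526786-95556403, both on the plus strand.

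The factors that recruit CIITA bind a shared block of elements upstream of class II genes, whose X2 element holds a TGA-type half-site and whose Y element is an inverted CCAAT box. *H2-Aa*, *H2-Ab1*, *H2-Eb1*, *H2-DMa* and *H2-DMb1* lie on chromosome 17 (GRCm38). *H2-Aa* spans chr17:34282744-34287823 on the minus strand, and *H2-Ab1* (chr17:34257689-34269419), *H2-Eb1* (chr17:34305867-34316674), *H2-DMa* (chr17:34119541-34139101) and *H2-DMb1* (chr17:34153072-34160230) the plus strand. To show how alike the stretches before the RefSeq starts read, 3 of them are printed (GRCm38.p6) in the direction of the gene, with TGATG or its reverse CATCA and the Y-type ATTGG in capitals. They cover chr17:34287824-34287943 (minus strand), chr17:34305747-34305866 (plus strand) and chr17:34153105-34153134 (plus strand).
H2-Aa: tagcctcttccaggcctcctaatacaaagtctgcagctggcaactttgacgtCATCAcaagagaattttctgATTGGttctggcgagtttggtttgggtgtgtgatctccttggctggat
H2-Eb1: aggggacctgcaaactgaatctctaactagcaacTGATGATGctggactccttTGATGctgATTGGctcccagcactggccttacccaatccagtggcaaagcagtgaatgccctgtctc
H2-DMb1: TGATGctaggctgattcactcagtgATTGG
Counted from the starts in the RefSeq table, the ATTGG ended 43 bases before the start in *H2-Aa*, 54 bases in *H2-Eb1* and 56 bases in *H2-DMb1*. The GENCODE span of *H2-DMb1* given above starts earlier than the RefSeq start, so the printed stretch lies inside that span and is upstream by RefSeq only. TGATG or CATCA starting at most 35 bases before ATTGG, or the same on the other strand, was searched in the 250 bases before each start, and the TGATG of *H2-Eb1* includes an overlapping pair. Of the 32851 windows, 2.60% held the pair and 33.8% held ATTGG or CCAAT at all. Windows were found for 5 members, and the 3 printed held the pair while those of *H2-DMa* and *Ctss* did not. Among other genes of the pathway that were searched, *H2-DMb2*, *H2-Ob* and *H2-Eb2* held it, and *H2-Oa*, *Ifi30*, *Ctsl* and *Lgmn* did not. A match describes letters in a window and does not show a bound site.

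The spots of the chip lie 4.8 µm apart. Their UMIs were added up in squares of 27 µm, called bins, of which those with at least 300 genes were kept. The tissue covered 16139 bins in KO1308, 12013 in KO1134 and 27104 in WT1101, with a mean of 1090, 2591 and 1497 UMIs per bin. Levels are CPM (UMIs of a gene over all UMIs of the same bins, in the usual scaling of CPM), with exact 95% Poisson intervals in parentheses, and ratios to WT carry exact conditional binomial intervals. These intervals cover counting error only. Because the WT group is 1 section, no test between genotypes was run, and KO and WT values are set side by side. Between sections, 5572 to 13670 barcode sequences were shared out of 334256 to 843232 per section. *Trp53*, the deleted gene, was at 25.1 CPM in KO1308, 17.0 CPM in KO1134 and 79.9 CPM in WT1101, so both KO sections were lower and neither was at 0.

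Over all tissue, the levels of all 8 genes in either KO section exceeded those of WT1101. The class II sum was 4358 CPM (4327 to 4389) in KO1308, 5006 CPM (4981 to 5030) in KO1134 and 1935 CPM (1922 to 1949) in WT1101. It was thus 2.25-fold (2.23 to 2.27) the WT level in KO1308 and 2.59-fold (2.56 to 2.61) in KO1134, a mean of 2.42 ± 0.237 (SD, n = 2). In a bin of several cells, more class II-bearing cells and more RNA per cell cannot be told apart.

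The invariant chain *Cd74* (chr18:60803848-60812652, plus strand) was at 1903 CPM in KO1308, 2058 CPM in KO1134 and 760 CPM in WT1101. *H2-Aa* was at 816, 892 and 318 CPM in the same order. *H2-Ab1* was at 988, 1086 and 495 CPM. For these 3 genes, the KO sections stood closer to each other than to WT, and their ratios to WT lay between 2.0 and 2.81. The I-E chain *H2-Eb1* stood further apart between the KO sections, at 651, 970 and 362 CPM, or 1.80-fold (1.76 to 1.84) and 2.68-fold (2.63 to 2.73) the WT level.

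Of the peptide loading genes, *H2-DMa* was at 91.4, 107 and 52.6 CPM. *H2-DMb1* was at 70.4, 65.7 and 28.0 CPM. *H2-DMb1* is nearly identical to its neighbour *H2-DMb2*, so how reads were shared between them is uncertain. The coactivator *Ciita* was the least abundant, with 404, 831 and 373 UMIs, at 23.0, 26.7 and 9.19 CPM. Its ratios to WT were 2.5 (2.17 to 2.88) and 2.90 (2.57 to 3.29). *Ctss* set the KO sections apart most, at 368, 723 and 204 CPM, or 1.80-fold (1.74 to 1.86) and 3.54-fold (3.45 to 3.63) the WT level.

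Past 2-fold higher than WT were 4 of 8 members in KO1308 (*Cd74*, *H2-Aa*, *H2-DMb1* and *Ciita*), against 20.2% of the 17401 genes with at least 100 UMIs, and 8 of 8 in KO1134, against 15.1%. No member was past 2-fold lower, against 4.2% and 7.67% of genes. The median ratio of the members was 2.25 in KO1308 and 2.69 in KO1134, and that of all genes was 1.13 and 1.01.

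Over the windows of 7 × 7 bins, the class II sum had a 10th percentile, median and 90th percentile of 1610, 3686 and 8063 CPM in KO1308. The values were 2193, 3851 and 9742 CPM in KO1134, and 901, 1594 and 4881 CPM in WT1101. The WT median was exceeded by 90.3% of windows in KO1308 and 97.4% in KO1134, and the WT 90th percentile by 38.0% and 37.0%. The higher level was thus spread over the sections, and the range within each section was wider than the difference between them. When each section was divided in 4 by position, the lowest and highest of the 4 were at 2588 and 5971 CPM in KO1308, 3752 and 5703 CPM in KO1134, and 1621 and 2396 CPM in WT1101.

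**Figure D1:**
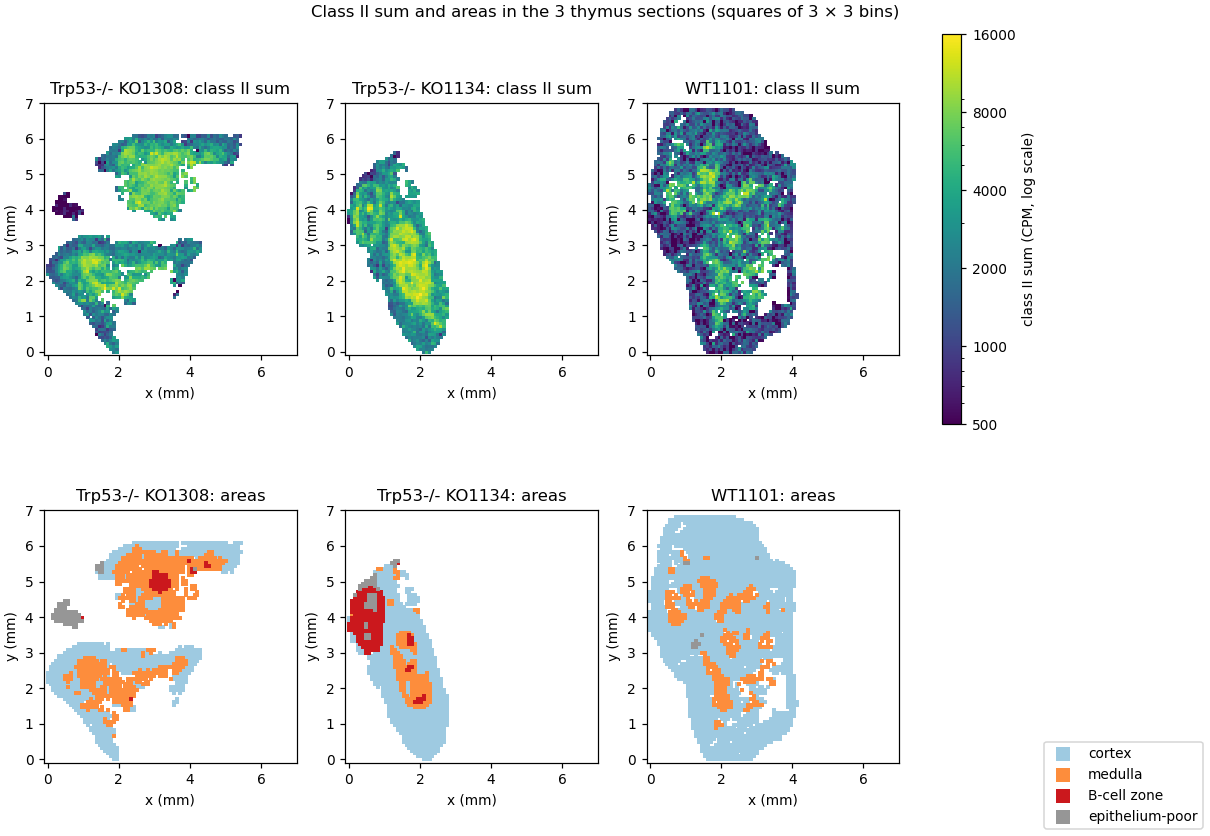
Maps of the 3 sections in squares of 3 × 3 bins (x and y in mm), with the class II sum in CPM on a log colour scale above and the areas named by epithelial genes below. High squares follow the medulla in every section, and the B-cell zone is seen in the KO sections, with 450 bins in KO1308 and 1959 in KO1134.

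Areas were first set by a rule anchored on WT. Bins outside the thymus were told from the thymus by the level of 6 thymocyte and cortical genes. Within the thymus, medullary epithelial genes with *Ccl21a* were set against cortical epithelial genes, each relative to WT1101, to divide medulla from cortex. The B-cell zone was taken from bins with more UMIs of *Cd79a*, *Cd79b* and *Ms4a1* than of the 6 genes. Under this rule the class II sum was 1787, 2737 and 1307 CPM in cortex bins, and 4141, 5797 and 2631 CPM in medulla bins (KO1308, KO1134, WT1101). Bins named outside the thymus had 5584, 7268 and 6479 CPM. The medulla was 2.32, 2.12 and 2.01 times the cortex, a mean of 2.15 ± 0.155 (SD, n = 3). Bins outside the thymus were 0.862-fold and 1.12-fold the WT level, beside 1.37-fold and 2.09-fold in cortex and 1.57-fold and 2.20-fold in medulla bins.

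The markers went against some of these names. In WT1101, bins named outside the thymus held *Aire*, the tolerance regulator of medullary epithelium, at 77.4 CPM against 17.6 CPM in bins named medulla, and *Krt5*, a keratin of medullary epithelium, at 248.7 against 106.7 CPM. The medulla name covered 74.3% of the bins of KO1308, where cortical epithelial genes were at 1992 CPM. These bins are therefore called by their rule only, and a second division, chosen after seeing the data, was used for what follows. In it, windows with under 500 CPM of cortical and medullary epithelial genes are epithelium-poor, windows where medullary genes without *Ccl21a* exceed 25% of the cortical genes are medulla, and the rest are cortex. The B-cell zone was kept.

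In this division *Aire* was at 74.3, 73.0 and 78.4 CPM in the medulla and at 18.1, 12.6 and 4.0 CPM in the cortex. The cortical gene *Prss16* was at 676, 479 and 352 CPM in the cortex and 444, 165 and 111 CPM in the medulla. The medulla of KO1308 thus held more *Prss16* than that of WT1101, and at 444 CPM even more than the cortex of WT1101 at 352 CPM. This marker goes against the name, while *Aire* goes with it. The medulla of KO1308 is therefore also called by its rule only, and its comparisons below hold for bins so named. The medulla held 39.97% of the UMIs of cortex and medulla together in KO1308, 17.5% in KO1134 and 7.54% in WT1101.

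Class II genes were higher in the medulla than in the cortex in all 3 sections. The class II sum was 2762 CPM (2729 to 2796) in the cortex of KO1308, 3881 CPM (3854 to 3909) in that of KO1134 and 1601 CPM (1589 to 1614) in that of WT1101. In the medulla it was 6701 CPM (6637 to 6766), 10341 CPM (10244 to 10439) and 6089 CPM (6002 to 6178). The medulla was 2.43, 2.66 and 3.80 times the cortex, a mean of 2.96 ± 0.736 (SD, n = 3). The WT section had the steepest step in this division and the shallowest under the WT-anchored rule.

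Set beside WT, the cortex differed more than the medulla in this division, while under the WT-anchored rule the order was the other way (means of 1.73 in cortex and 1.89 in medulla bins). The ratio was 1.72 (1.70 to 1.75) in the cortex of KO1308 and 2.42 (2.40 to 2.45) in that of KO1134. In the medulla it was 1.10 (1.08 to 1.12) and 1.70 (1.67 to 1.73). The means were 2.07 for cortex and 1.40 for medulla. When the KO sections were given the area shares of WT1101, the ratio over cortex and medulla together was 1.58 in KO1308 and 2.25 in KO1134, where their own shares gave 2.24 and 2.58. A larger share of medulla thus went with part of the difference in KO1308, and with less of it in KO1134.

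**Figure D2:**
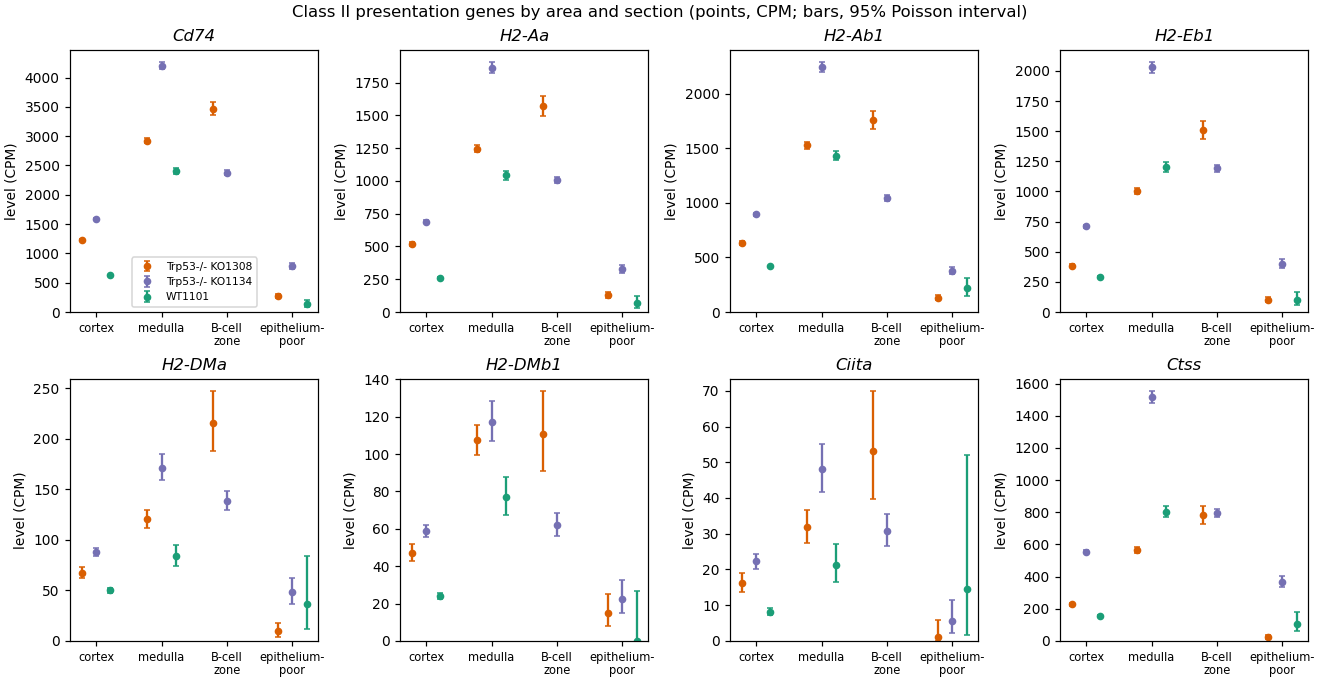
Level of each of the 8 genes (CPM, linear axis from 0) in cortex, medulla, B-cell zone and epithelium-poor bins of the 3 sections, with exact 95% Poisson intervals. In these areas both KO sections lie above WT1101 in the cortex for every gene, and KO1308 lies below WT1101 in the medulla for *H2-Eb1* and *Ctss*, whereas under the WT-anchored rule *H2-Eb1* in the cortex of KO1308 is at 0.925-fold and both medullary genes are above WT1101.

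With the epithelial division every member was higher in the cortex of both KO sections than in that of WT1101. Under the WT-anchored rule this held for 7 of 8 in KO1308, where *H2-Eb1* was 0.925-fold (0.833 to 1.03) the WT level, and for 8 of 8 in KO1134. The intervals of *H2-DMa*, *Ciita* and *Ctss* in KO1308 included 1 under that rule. *Cd74* was at 1226, 1586 and 628 CPM there. *H2-Aa* was at 520, 687 and 260 CPM. *H2-Ab1* was at 634, 896 and 419 CPM. The I-A chains thus kept the order KO1134, KO1308, WT1101. *H2-Eb1* at 382, 712 and 294 CPM was 1.30-fold (1.25 to 1.35) and 2.42-fold (2.36 to 2.48) the WT level, though at matched distance from the medulla KO1308 had 0.809-fold to 1.01-fold. *Ctss* at 227, 556 and 156 CPM was 1.46-fold and 3.56-fold, though at matched distance KO1308 had 0.647-fold to 1.12-fold. *H2-Ab1* and *H2-DMa* of KO1308 reached 0.958-fold and 0.824-fold at their lowest distance step, with intervals that include 1. *H2-DMa* was at 67.5, 87.9 and 50.05 CPM, the smallest ratio of the 8 in KO1134, at 1.76. *H2-DMb1* was at 47.2, 58.7 and 24.1 CPM and *Ciita* at 16.2, 22.3 and 8.18 CPM. In the cortex 1 member (*H2-Aa*) was past 2-fold in KO1308, against 14.5% of 16216 genes, and 7 in KO1134, also against 14.5%. No member was past 2-fold lower, against 3.06% and 8.6%.

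In the medulla of the epithelial division the members parted. *H2-Eb1* was at 1005 CPM (980 to 1030) in KO1308, 2030 CPM (1986 to 2073) in KO1134 and 1203 CPM (1165 to 1243) in WT1101. *Ctss* was at 567 CPM (549 to 586), 1514 CPM (1477 to 1552) and 803 CPM (772 to 836). With the epithelial division both lay below WT1101 in KO1308 and above it in KO1134. Under the WT-anchored rule the direction in KO1308 turned, with *H2-Eb1* at 1.19-fold (1.14 to 1.23) and *Ctss* at 1.10-fold the WT level in medulla bins. *Ctss* in KO1308 was 0.706-fold (0.670 to 0.743) the WT level. The other 6 genes were higher in both KO sections, *H2-Ab1* least in KO1308 at 1528, 2248 and 1435 CPM. *Ciita* at 31.8, 48.0 and 21.3 CPM and *H2-DMa* at 120, 172 and 84.3 CPM had the largest ratios of KO1134, 2.25 (1.70 to 3.03) and 2.04 (1.76 to 2.36). Both intervals include 2, and these were the 2 members past 2-fold higher there, against 4.8% of 12898 genes. None was so in KO1308, against 6.66%, and no member was past 2-fold lower, against 2.6% and 5.23%.

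The markers of other cells also differed between the sections, not all in the order of the class II sum. B cell genes were at 129, 223 and 40.9 CPM over all tissue, plasma cell genes at 865, 460 and 140 CPM and adipocyte genes at 632, 380 and 6.90 CPM. Dendritic cell genes in the medulla were at 194, 292 and 315 CPM, lower in KO1308 than in the other sections. Their part in the class II difference was not tested beyond the bins described next. In bins thinned to 500 UMIs, those without a UMI of the B cell genes had 99.2% to 99.3% of the class II level of all bins in the cortex. Those without a UMI of B cell, dendritic cell or macrophage genes had 91.7% to 94.8%, and the ratio to WT in these bins was 1.65 in KO1308 and 2.26 in KO1134, beside 1.61 and 2.29 in all thinned cortex bins. A bin without a marker UMI may still hold such a cell at this depth.

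The class II sum fell from the inner medulla to the outer cortex in each section. The areas were set from windows of 7 × 7 bins of 27 µm, which blur the border itself. The width of the slope therefore cannot be read from these values. In the outermost step, beyond 270 µm into the cortex, the class II sum was 1828 CPM in KO1308, 3271 CPM in KO1134 and 1512 CPM in WT1101. In the first 54 µm of cortex it was 4123, 7371 and 3864 CPM, and in the first 54 µm of medulla 5136, 9675 and 5674 CPM. At 162 to 216 µm into the medulla it was 8208, 10934 and 6922 CPM. KO1308 lay near WT1101 around the border, at 0.905-fold on the medulla side and 1.07-fold on the cortex side, and 1.21-fold to 1.38-fold further into the cortex. KO1134 was 1.58-fold to 2.16-fold the WT level at every distance present in both.

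The proteases had opposite courses in WT1101. *Ctss* was at 124 CPM beyond 270 µm into the cortex, 690 CPM in the first 54 µm of medulla and 1194 CPM at 162 to 216 µm. *Ctsl*, cathepsin L, the protease that cortical epithelium uses on the invariant chain, was at 2139, 1725 and 1178 CPM at the same places. KO1308 had *Ctss* at 0.949-fold to 1.12-fold the level of WT1101 from 54 µm into the cortex onward. In the first 54 µm of cortex its *Ctss* was at 0.647-fold, and in the medulla at 0.576-fold to 0.697-fold. *Ctsl* of KO1308 was at 2525 CPM in the first 54 µm of medulla. KO1134 had *Ctss* at 457 CPM far into the cortex, 3.68-fold (3.2 to 4.24) the WT level.

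**Figure D3:**
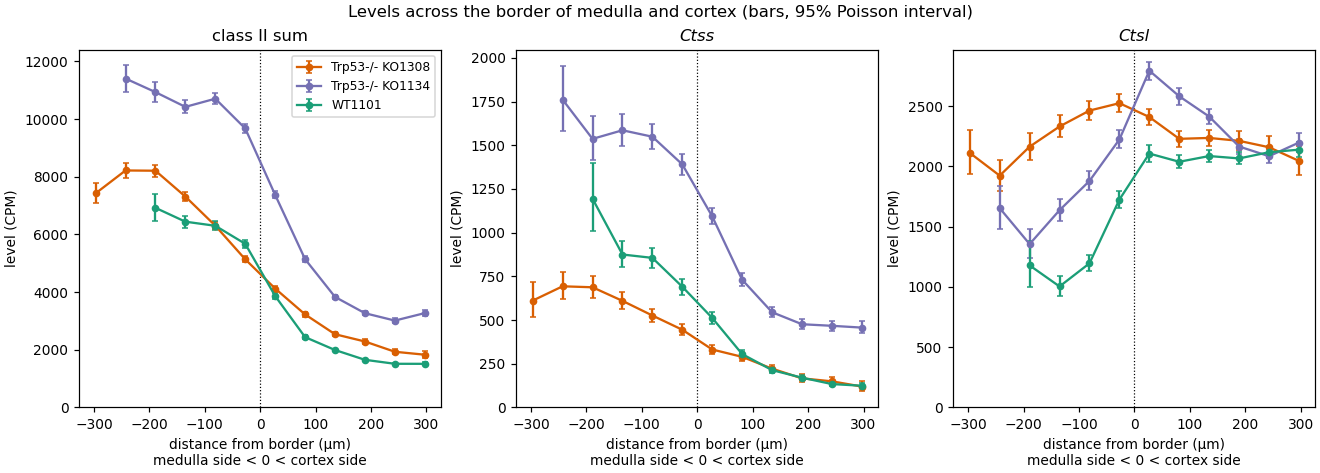
Class II sum, *Ctss* and *Ctsl* in CPM against the distance from the border between medulla and cortex in µm, in steps of 54 µm, with exact 95% Poisson intervals, for the 3 sections. KO1134 is above WT1101 at every distance for the class II sum, and KO1308 meets WT1101 at the border, at 4123 and 3864 CPM on the cortex side.

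At matched levels of medullary epithelial genes the KO sections parted again. Bins outside the B-cell zone were sorted by the CPM of medullary genes without *Ccl21a* in their window. From under 25 to over 800 CPM, the class II sum went from 770 to 7576 CPM in KO1308, from 2318 to 10910 CPM in KO1134 and from 1169 to 5895 CPM in WT1101. In the 7 strata KO1308 was 0.658-fold to 1.29-fold the WT level, on both sides of it. KO1134 was 1.42-fold to 2.01-fold, above it in each.

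Sorting by B cell genes gave a different picture within the cortex. From under 25 to between 200 and 400 CPM of B cell genes in the window, the class II sum was 2040 to 5591 CPM in KO1308, 2542 to 6570 CPM in KO1134 and 1358 to 4049 CPM in WT1101. The ratio to WT was 1.34 to 1.60 in KO1308 and 1.62 to 2.09 in KO1134, above WT in each stratum of the cortex. In the medulla the ratios were 0.746 to 1.21 in KO1308, below WT in 3 of 5 strata, and 1.46 to 1.78 in KO1134. In the medulla of WT1101 the class II sum hardly followed the B cell genes, at 5514 to 6510 CPM over all strata. In that of KO1308 it went from 4113 CPM at under 25 CPM of B cell genes to 7856 CPM at 200 to 400 CPM.

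**Figure D4:**
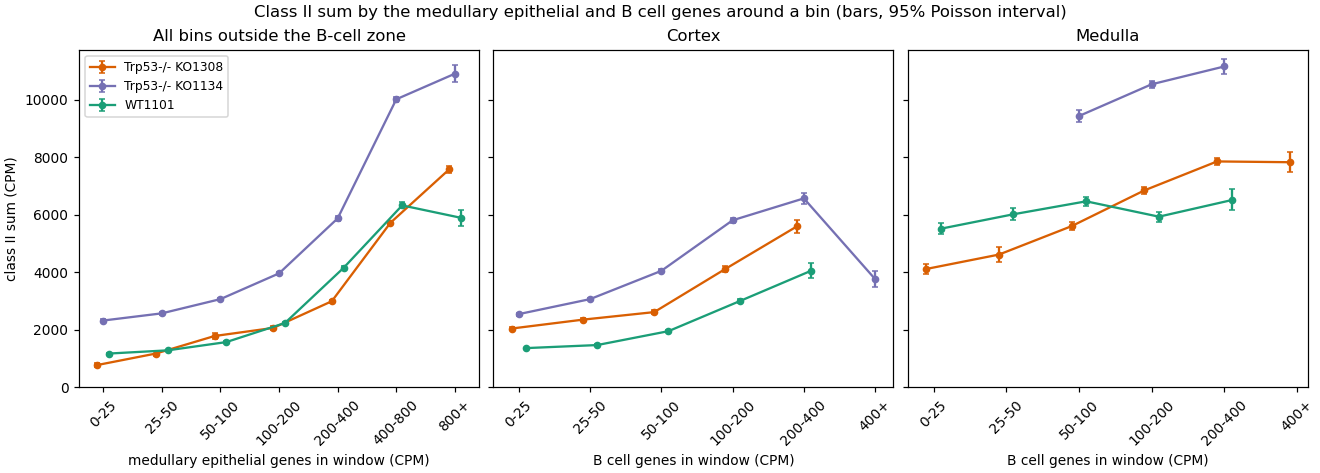
Class II sum (CPM) of bins sorted by the CPM of medullary epithelial genes (left) or B cell genes (middle, cortex, and right, medulla) in the surrounding 7 × 7 bins, with exact 95% Poisson intervals. On the left KO1308 crosses WT1101 while KO1134 stays above it at 1.42-fold to 2.01-fold, and in the cortex both KO sections lie above WT1101.

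The B-cell zone was high in class II genes, but not alike in both KO sections. It held the class II sum at 8311 CPM (8131 to 8494) over 450 bins in KO1308 and 5622 CPM (5563 to 5682) over 1959 bins in KO1134. WT1101 had no such bins, so no ratio to WT exists. Against its own medulla, the zone was 1.24-fold (1.21 to 1.27) in KO1308 and 0.544-fold (0.536 to 0.551) in KO1134. Each member was lower in the zone than in the medulla in KO1134, from 0.465-fold for *H2-Ab1* to 0.808-fold for *H2-DMa*. In KO1308 each was higher, from 1.03-fold (0.833 to 1.26) for *H2-DMb1*, an interval that includes 1, to 1.80-fold for *H2-DMa*.

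The zones also differed in the other genes that their own bins held. The largest connected part in KO1308, of 346 bins, had *Krt5* at 180 CPM, *Aire* at 36.5 CPM and the class II sum at 8360 CPM. That of KO1134, of 1784 bins, had *Krt5* at 10.1 CPM, *Aire* at 2.48 CPM, adipocyte genes at 420 CPM and the class II sum at 5168 CPM. A second part of KO1134, of 70 bins, had *Krt5* at 301 CPM, *Aire* at 45.5 CPM and the class II sum at 10761 CPM. *Cr2*, a gene of B cells and follicular dendritic cells, was at 178 CPM in the part of KO1308 and at 48.4 and 119 CPM in those of KO1134. The parts with more *Krt5* and *Aire* thus had the higher class II level. Epithelium-poor bins had the lowest, at 631, 1894 and 512 CPM, with adipocyte genes at 6759 and 1509 CPM in the KO sections.

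The chains did not keep a fixed proportion. The ratio of *H2-Aa* to *H2-Ab1* UMIs was 0.821 (0.790 to 0.852), 0.767 (0.750 to 0.785) and 0.620 (0.604 to 0.636) in the cortex, and 0.816, 0.829 and 0.727 in the medulla. In the B-cell zone it was 0.891 in KO1308 and 0.961 in KO1134. It was lowest in the cortex of WT1101. The ratio of *H2-Eb1* to *H2-Ab1* was 0.602, 0.795 and 0.701 in the cortex, 0.657, 0.903 and 0.839 in the medulla, and 0.856 and 1.14 in the B-cell zone. KO1308 had the lowest of the 3 sections in both cortex and medulla.

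The ratio of *Ctss* to *Ctsl* was 0.102 (0.0975 to 0.107), 0.242 (0.237 to 0.247) and 0.0741 (0.0722 to 0.0761) in the cortex. In the medulla it was 0.241, 0.795 and 0.581, and in the B-cell zone 0.841 and 1.55. It was higher in the medulla than in the cortex and higher in the B-cell zone than in the medulla wherever each area was present. In KO1308 the medullary value was below those of the other sections.

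Beyond the members, 29 further genes of the pathway were taken from a list that was chosen by role. Over all tissue, 10 of 29 were past 2-fold higher and 1 (*H2-Ea-ps*, the defective I-E alpha chain) past 2-fold lower in KO1308, and 12 of 29 higher and none lower in KO1134, against the shares of all genes given above (20.2% and 15.1% higher). The median ratio of the list was 1.45 and 1.74. In the cortex 4 of 28 tested (*H2-DMb2*, *H2-Eb2*, *Lgmn* and *Irf1*) were past 2-fold higher in KO1308, or 14.3% of the list against 14.5% of all genes, and 8 in KO1134, or 28.6% against 14.5%. In the medulla 1 (*Prss16*) and 0 of 27 were so, against 6.66% and 4.8% of all genes. The list thus stood above the share of all genes over the whole tissue in both KO sections and in the cortex of KO1134, and at or below it elsewhere.

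Past 2-fold over all tissue in both KO sections were further class II chains, endosomal proteases and regulators. *H2-DMb2*, the second DM beta chain, was 3.18-fold and 2.86-fold the WT level. *H2-Ob*, a beta chain of H2-DO, which holds H2-DM back in B cells, was at 42.2, 59.3 and 13.5 CPM, or 3.13-fold and 4.40-fold. Its partner *H2-Oa* was 1.74-fold and 2.26-fold, less than the beta chain over all tissue. Within areas of KO1134 the order turned. There *H2-Oa* and *H2-Ob* were 1.85-fold and 1.72-fold in the cortex, and 1.88-fold and 1.67-fold in the medulla. KO1308 kept the order, at 1.32-fold and 1.68-fold in the cortex and 1.11-fold and 1.80-fold in the medulla. The B-cell zones of the KO sections, high in *H2-Ob*, had no counterpart in WT1101. *H2-Eb2* was 5.61-fold (4.68 to 6.74) and 3.55-fold (2.97 to 4.25). *Lgmn*, an endosomal protease, was 2.43-fold and 2.12-fold, and *Ctsh*, cathepsin H, 2.28-fold and 3.02-fold. In the medulla none of these genes was past 2-fold in either KO section. *H2-DMb2* was 1.49-fold and 1.58-fold there, *H2-Eb2* 1.41-fold and 1.40-fold, *Lgmn* 1.35-fold and 1.11-fold, and *Ctsh* 1.09-fold and 1.79-fold. In the cortex *H2-DMb2*, *H2-Eb2* and *Lgmn* were past 2-fold in both KO sections, and *Ctsh* in KO1134 only.

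Among regulators, *Irf8*, a transcription factor of B cells and dendritic cells, was 2.03-fold and 2.27-fold the WT level over all tissue. It was 1.69-fold and 2.37-fold in the cortex and 1.15-fold and 1.29-fold in the medulla. *Ifng*, which encodes interferon gamma, rested on 36, 68 and 18 UMIs and was 4.61-fold (2.55 to 8.63) and 4.93-fold (2.90 to 8.80). The subunits of NF-Y, which binds the Y element, lay below WT, at 0.581-fold to 0.951-fold in KO1308 and 0.586-fold to 0.652-fold in KO1134, with an interval that includes 1 for *Nfyc* in KO1308. This was not particular to NF-Y. *Creb1*, also on the list, was 0.696-fold and 0.538-fold, *Rfxap* 0.860-fold and 0.520-fold, and *Rfxank* 0.925-fold and 0.932-fold, with intervals that include 1 for *Rfxank*. *Rfx5* was 1.45-fold and 0.858-fold. Of the proteases of cortical epithelium, *Ctsl* was 1.03-fold and 0.890-fold over all tissue and 1.06-fold and 1.09-fold within the cortex. *Prss16*, a cortical serine protease, was 1.57-fold and 0.997-fold over all tissue, 1.92-fold and 1.36-fold within the cortex, and 4.01-fold and 1.49-fold within the medulla. *Ifi30*, a thiol reductase of the endosome, was 1.44-fold and 2.23-fold.

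*H2-Ob* marked the B-cell zone more than the members did. It was 8.34-fold (6.71 to 10.4) the cortex level there in KO1308 and 9.13-fold (8.14 to 10.3) in KO1134, and 3.16-fold, 2.86-fold and 2.96-fold in the medulla of the 3 sections. The ratio of *H2-Ob* to *H2-DMa* was 0.293, 0.230 and 0.235 in the cortex and 0.763 and 1.33 in the B-cell zone. *Lgmn* and *Ctsl* had the other course in KO1134, at 0.424-fold and 0.224-fold the cortex level in the zone.

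Across bins, the class II sum went with medullary rather than cortical epithelial genes. Pearson correlations were computed within each section on ln(1 + UMIs per 10000), are given without p-values, and rest on bins that share a library, their neighbours and their depth. With medullary genes, whose list here and below includes *Ccl21a*, r was 0.285, 0.423 and 0.266 (n = 16139, 12013 and 27104 bins). With cortical genes it was 0.018, 0.021 and 0.029, and with all epithelial genes 0.170, 0.227 and 0.156. With B cell genes r was 0.148, 0.209 and 0.070, lowest in WT1101, where B cell genes were also scarcest. Dendritic cell genes gave 0.127, 0.237 and 0.176 and macrophage genes 0.182, 0.229 and 0.138. Single bins are sparse, and the total UMIs of a bin correlated with the class II sum at 0.131 on average, close to the value for B cells.

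Over squares of 5 × 5 bins medullary genes again had the highest r with the class II sum of the lists in each section. They gave 0.839, 0.790 and 0.821 (n = 669, 484 and 1137 squares), dendritic cell genes 0.557, 0.624 and 0.689, macrophage genes 0.696, 0.519 and 0.547, and B cell genes 0.559, 0.417 and 0.368. *Ccl21a*, a gene of the medullary list, gave 0.808, 0.755 and 0.801 by itself, and the list without it was not tested over squares. Cortical genes gave 0.104, -0.046 and -0.305. Within the cortex alone r with cortical genes was 0.047, 0.132 and 0.138 over bins and with medullary genes 0.137, 0.301 and 0.161. The total UMIs of a bin gave 0.158 to 0.213 in the cortex and 0.194 to 0.368 in the B-cell zone. The part of depth in these values was not tested. Within the B-cell zone, B cell genes gave 0.161 in KO1308 and 0.362 in KO1134, the latter higher than that of medullary genes at 0.195. Over single bins, the B-cell zone of KO1134 thus had the highest r with B cell genes of the areas compared.

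The members differed in this. *Cd74* correlated with medullary genes over bins at 0.247, 0.382 and 0.249 and with B cell genes at 0.143, 0.209 and 0.060. *H2-Eb1* gave 0.22, 0.367 and 0.213, and 0.133, 0.212 and 0.058. *Ctss* gave 0.180, 0.341 and 0.213, and with cortical genes 0.016, -0.035 and -0.056. *Ciita*, found in 1.31% to 6.16% of bins, gave at most 0.092 with any of these lists, which at this sparsity is no finding.

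**Figure D5:**
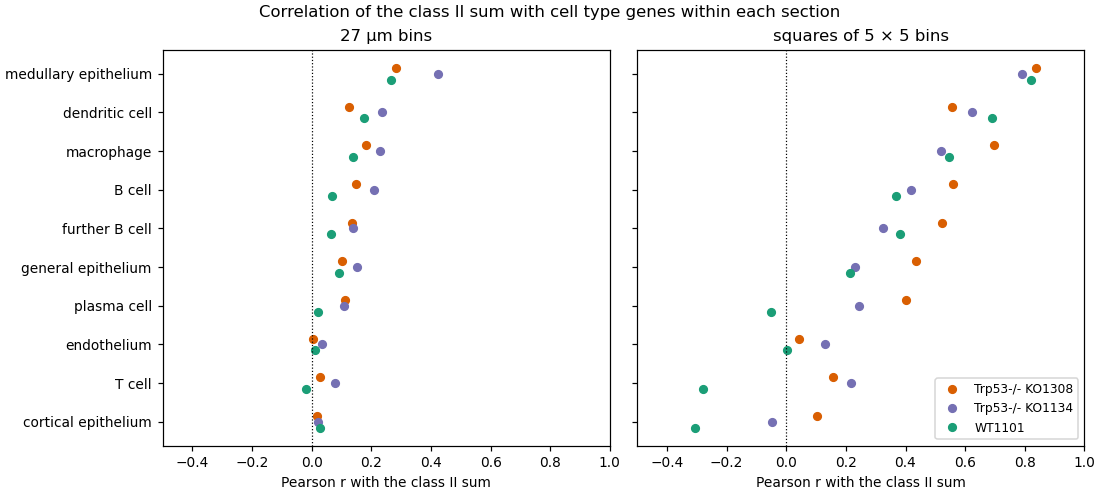
Pearson r of the class II sum with the summed genes of 10 cell type lists in the 3 sections, over 27 µm bins (left) and over squares of 5 × 5 bins (right). Medullary epithelial genes, *Ccl21a* among them, are at the top in all sections, at 0.790 to 0.839 over squares, and cortical epithelial genes are near or below 0.

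Among 10868 genes with at least 200 UMIs in each section, those most like the class II sum over squares were ranked by their lowest r of the 3 sections. The members *Cd74*, *H2-Ab1*, *H2-Aa* and *H2-Eb1*, which make up the sum, took ranks 1 to 4. *Ctss* took rank 10 at 0.736, *H2-DMb1* rank 102 at 0.420, *H2-DMa* rank 355 at 0.290 and *Ciita* rank 717 at 0.203. The 3 members with the fewest UMIs thus came last.

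Outside the members, the 10 genes with the highest r were *4930578G10Rik* (0.765), *Tmsb4x* (0.757), *Ccl21a* (0.755), *H2-K1* (0.739), *Patl2* (0.737), *B2m* (0.723), *H2-D1* (0.712), *Fcgbp* (0.711), *Ly6a* (0.711) and *Gm13307* (0.711). The median lowest r over all genes was -0.049. *Ccl21a* encodes a chemokine of medullary epithelium that draws T cells, and *H2-K1*, *H2-D1* and *B2m* encode class I heavy chains and their light chain. *4930578G10Rik* (chr4:42735545-42846248, plus strand) contains *Ccl21a* on the other strand, and *Patl2* (chr2:122120108-122186189, minus strand) contains *B2m* on the other strand, so their reads may not be told apart.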

How the data were processed

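The authors sectioned OCT-embedded thymus onto BMKMANU S1000 chips, processed the reads with BSTMatrix 2.0 and STAR 2.5.1b on GRCm38 per the labels, and deposited UMI counts without normalisation, for each spot and gene. Whether counting used strand is not given in the sources used here. Spots were summed in 27 µm bins, kept at 300 genes or more and at most 30% mitochondrial UMIs, and connected groups under 200 bins were dropped. Folded areas were not removed. Areas were set from 7 × 7 bin windows. CPM and ratios came from UMIs summed over bins, with intervals at 95% in scipy 1.17.1 (Python 3.11.15, numpy 2.4.6, pandas 2.3.3, matplotlib 3.10.9). The correlations used ln(1 + UMIs per 10000). The scripts were checked on simulated data.

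The text names the 8 members in every section and area, pathway genes past 2-fold in both KO sections or listed by role (1 of them is counted but not reported here), and the 10 genes most like the class II sum. The NF-Y subunits, *Creb1*, *Rfx5*, *Rfxap* and *Rfxank* were named after their values were seen. The members and lists were chosen with earlier results of these data known. Alternatives covered bin width, filters, thinning to 500 UMIs, area rules, mix of areas and each KO section alone. Gene positions are from GENCODE M21 and promoter sequences from RefSeq. No sequence was printed for *Cd74*, *H2-Ab1* and *Ciita*. Single-cell and other data of the study were not used here.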

Additional observations from a re-analysis of the deposited data

How the results depend on the processing

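Of 169 recomputed values over 11 results, 154 moved by less than the spread between sections, 15 moved by more, and no ratio whose KO sections lay on 1 side of WT changed sides. The ratio outside the thymus, whose KO sections lay on both sides, did so. The 169 include leaving out each KO section in turn. By its arithmetic such an omission could not move a value by more than the spread. Nor could it change the side of a ratio whose KO sections lay on 1 side of WT. No paired analysis was possible because there was 1 WT section and replicate numbers were given in accession order. Over all tissue the ratio of 2.42 became 2.17 with bins thinned to 500 UMIs, 2.13 in bins without a B cell UMI and 1.91 at the WT mix of areas. In medulla bins 1.89 became 2.51 when the medulla was set relative to each section's own thymus, and 1.40 with the epithelial areas. In bins outside the thymus 0.992 became 2.47, the ratio of epithelium-poor bins in the epithelial areas. Epithelium-poor bins are defined otherwise, and in WT1101 they were at 512 CPM, against 6479 CPM outside the thymus. The 2.47 is the mean of 1.23 (0.963 to 1.60) in KO1308 and 3.70 (2.92 to 4.75) in KO1134. It rests on 71 class II UMIs in 108 bins of WT1101. The medulla to cortex ratio of 2.15 became 2.74 with a 2-fold margin between areas and 2.96 with the epithelial areas. The correlation with B cell genes, 0.142, became 0.448 over squares and 0.0298 in cortex bins of the WT-anchored rule alone. That with epithelial genes, 0.184, became 0.256 in 50 µm bins, 0.109 after thinning, 0.115 without bins holding a B cell UMI, 0.408 over squares and 0.144 in cortex bins alone. The cause of these shifts was not tested. The ratio of the B-cell zone to WT has no value, since WT1101 had no such bins.

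Leaving out each KO section in turn gave ratios of 2.25 to 2.59 over all tissue, 1.37 to 2.09 in cortex bins, 1.57 to 2.20 in medulla bins and 0.862 to 1.12 outside the thymus. With the epithelial areas it gave 1.72 to 2.42 in cortex, 1.10 to 1.70 in medulla and 1.58 to 2.25 at the WT mix. The same omissions gave medulla to cortex ratios of 2.07 to 2.17, or 3.11 to 3.23 with the epithelial areas, and correlations of 0.109 to 0.139 with B cell genes and 0.163 to 0.191 with epithelial genes. The 3 sections limit every comparison, and sections of 1 mouse each cannot give the spread between mice of a genotype.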

Other observations

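*H2-Ea-ps*, the feature of the defective I-E alpha chain gene of C57BL/6 mice, had 1 UMI in KO1308, 171 UMIs in KO1134 and 58 UMIs in WT1101. It was thus 0.0398-fold (0.000990 to 0.231) and 3.84-fold (2.84 to 5.27) the WT level, while *H2-Aa* was 2.57-fold and 2.81-fold. The class II genes around it were abundant in KO1308, and this one feature was nearly absent there. *H2-Ea-ps* was the 1 gene of the pathway list past 2-fold lower in KO1308, and the cause was not tested.

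The second DM beta chain gene gained on the first from cortex to B-cell zone. The ratio of *H2-DMb2* to *H2-DMb1* UMIs was 1.29, 1.08 and 1.14 in the cortex of KO1308, KO1134 and WT1101, 1.58, 1.54 and 1.48 in the medulla, and 2.39 and 2.61 in the B-cell zones of the KO sections. The order of the areas was the same in each section, and reads shared between the near-identical copies may enter it.

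The invariant chain gene held a larger proportion to *H2-Ab1* in both KO sections. The ratio of *Cd74* to *H2-Ab1* UMIs was 1.93, 1.77 and 1.50 in the cortex and 1.91, 1.87 and 1.68 in the medulla, so it was lowest in WT1101 in both areas.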
